A study of Mus musculus with 27 samples.

Results

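Tibialis anterior muscles taken 3 days after volumetric muscle loss (VML) were compared with muscles without injury, to ask which genes differ early after a large excision. The comparison used 10 of the 27 samples of the series, 5 at day 3 and 5 without injury, and the 14630 of 54532 annotated genes that had an FPKM (fragments per kilobase of gene, scaled to the sequenced reads) of at least 0.5 in 5 or more of the 27 samples. In the VML model about 40% of the muscle is cut out of C57BL/6 mice, which were 8-week-old males, and the uninjured muscles came from mice of the same strain and were labelled Control. The study's text describes the excision as bilateral and the public record as unilateral, so the samples of a group may or may not come from separate animals, and p-values measure the spread between these samples. The other groups were taken at 7, 14 and 21 days, of which the 6 samples of day 7 are used at the end.

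A tibialis anterior is made mostly of large multinucleated fibres of fast contraction, and its RNA is dominated by contractile proteins, calcium pumps and enzymes of energy supply. After injury, dying fibres are cleared by neutrophils and by monocytes that mature into macrophages, while satellite cells, the stem cells of muscle, leave quiescence, divide as myoblasts and fuse into new fibres that express developmental isoforms. Fibroblasts and fibro-adipogenic progenitors lay down provisional matrix in the same period, and after VML this matrix is known to persist as scar.

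Injured muscle at day 3 held many more transcripts of phagocytes, dividing cells, fusing myoblasts and provisional matrix, and fewer transcripts of the adult contractile apparatus and of energy metabolism. A linear model on log2(FPKM + 1) with limma called a gene at a Benjamini-Hochberg adjusted p under 0.05. It called 23.4% of the genes tested higher and 19.8% lower at day 3, the shares against which each group of genes below is read. All 5 samples of day 3 lay above all 5 without injury for 2892 genes (19.8%) and below them for 2420 genes (16.5%). The increases were the larger changes, since 381 genes rose and 23 fell by more than 4-fold on this scale, and 36 rose and 0 fell by more than 16-fold. The added 1 in log2(FPKM + 1) makes the differences of low genes look smaller than they are. Genes near 0 without injury pass the filter only through injured samples, so the counts of lists with such genes describe the lists.

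**Figure D1:**
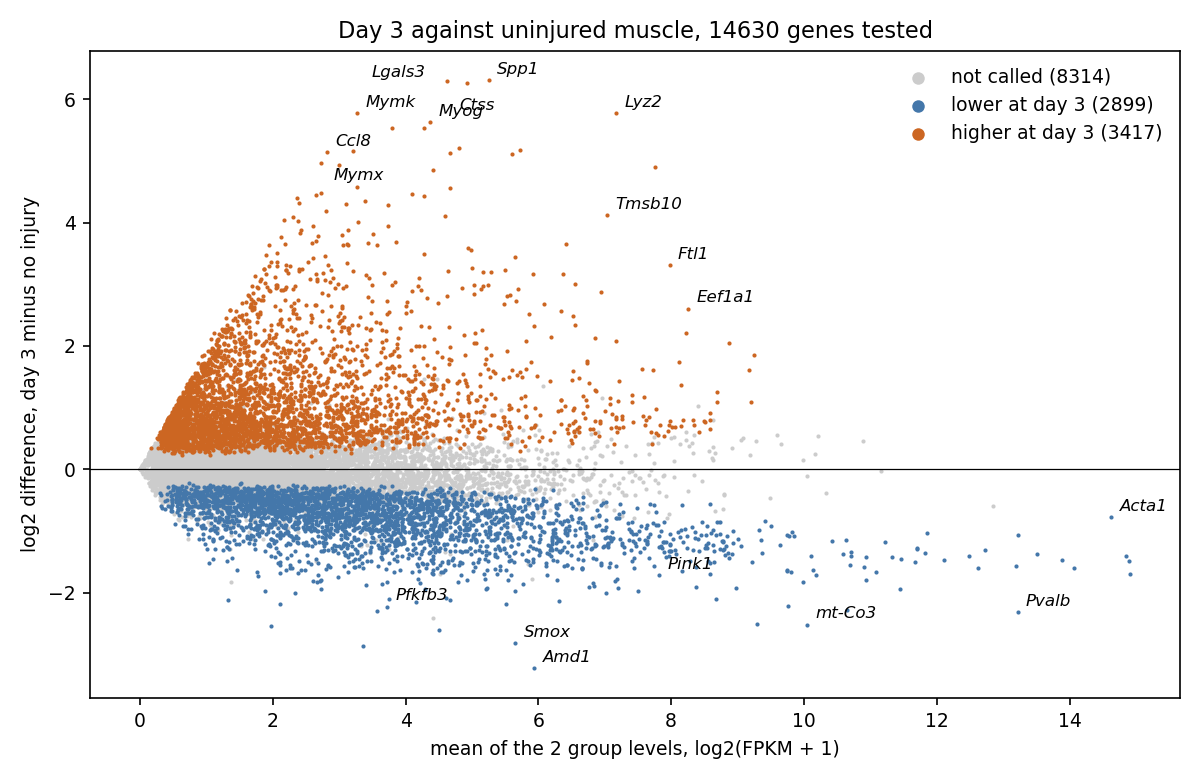
Each point is 1 of the 14630 genes tested, with the mean of its group levels in log2(FPKM + 1) on the horizontal axis and its log2 difference, day 3 minus no injury, on the vertical axis, and colours mark genes called higher, lower or not called. The upward differences reach 6.31 (Spp1) and the downward ones -3.23 (Amd1).

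Sequencing depth did not differ detectably between the groups, at 14376395 to 19819115 reads per sample at day 3 and 15469920 to 21014569 without injury. The denominator of the deposited FPKM, however, was 1.25 ± 0.153 times a sample's own total of reads at day 3 and 0.782 ± 0.0317 times without injury (SD, n = 5 each), a difference with p = 0.00794 in an exact two-sided permutation test, below which 5 against 5 cannot go. Reads of mitochondrial DNA made up 12.5% ± 3.46 of the total at day 3 and 22.3% ± 2.83 without injury (p = 0.00794 in the same exact test). Scaling FPKM to each sample's own total shifted the median log2 difference of all genes from 0.012 to 0.40 and the calls to 44.7% higher (6534 genes) and 4.22% lower (618 genes). A common sum of FPKM per sample gave 6868 higher and 322 lower, and quantile normalization 2774 higher and 3734 lower. Differences below are on the deposited scale, and the counts on each sample's own total of reads (the own total) are set beside the lists in which they moved most. Of 106 genes named below and called higher 106 were still called higher on each sample's own total, and of 51 named and called lower 36 were still called lower.

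Replicate 5 of day 3 stood apart from the other 4. Its correlation with its own group averaged 0.949 against 0.962 to 0.973 for the others, and it alone carried a second principal component of the 10 samples (a score of 46.9 against -12.2 to 7.70 in the other 9). It held 390 genes more than 2-fold above and 440 more than 2-fold below the mean of the other day 3 samples. Macrophage genes were low in it (Spp1 15.5 FPKM against a mean of 512 in the other 4), Dlk1 was high (20.51 against 0.336 FPKM) and so was the perinatal myosin Myh8 (45.5 against 8.56 FPKM). Without it 3407 genes were higher and 2795 lower. The spread was also wider after injury, because the SD on the log2 scale was larger at day 3 for 74.9% of the higher and 66.0% of the lower genes, against 49.1% of the genes not called.

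Markers of several cell types moved with the injury. The summed FPKM of 10 markers of mature fibres lay between 90215 and 107720 in uninjured muscle and between 23174 and 67159 at day 3, and 8 of the 10 were lower. Among 10 monocyte and macrophage markers 10 were higher, and their sum went from 17.6 to 26.0 FPKM without injury to 333 to 2204 FPKM at day 3, lowest in replicate 5. Of 10 neutrophil markers only S100a8, S100a9 and Csf3r passed the filter and each was higher, with a sum over the 10 of 0.456 to 4.31 FPKM without injury and 20.9 to 39.3 FPKM at day 3, while the granule gene Ngp was 0 in all uninjured muscles and had a mean of 0.0471 FPKM at day 3. The T cell markers Cd3d and Cd4 were at 0 in all uninjured muscles, and no tested marker was called for T cells, natural killer cells, mast cells, eosinophils, adipocytes, Schwann cells, red cells or keratinocytes. Few could be called, for only 1 of 7 T cell, 1 of 5 eosinophil, 2 of 6 natural killer and 2 of 6 keratinocyte markers passed the filter. The eosinophil sum was 0 to 0.0210 FPKM without injury and 0.0374 to 0.703 FPKM at day 3. The T cell and natural killer cell sums overlapped between the groups. Fibroblast markers were higher for 4 of 8 and endothelial markers lower for 3 of 8. In whole muscle, fewer cells of a type and less RNA per cell cannot be told apart, and the part of these shifts in the differences below was not tested.

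**Figure D2:**
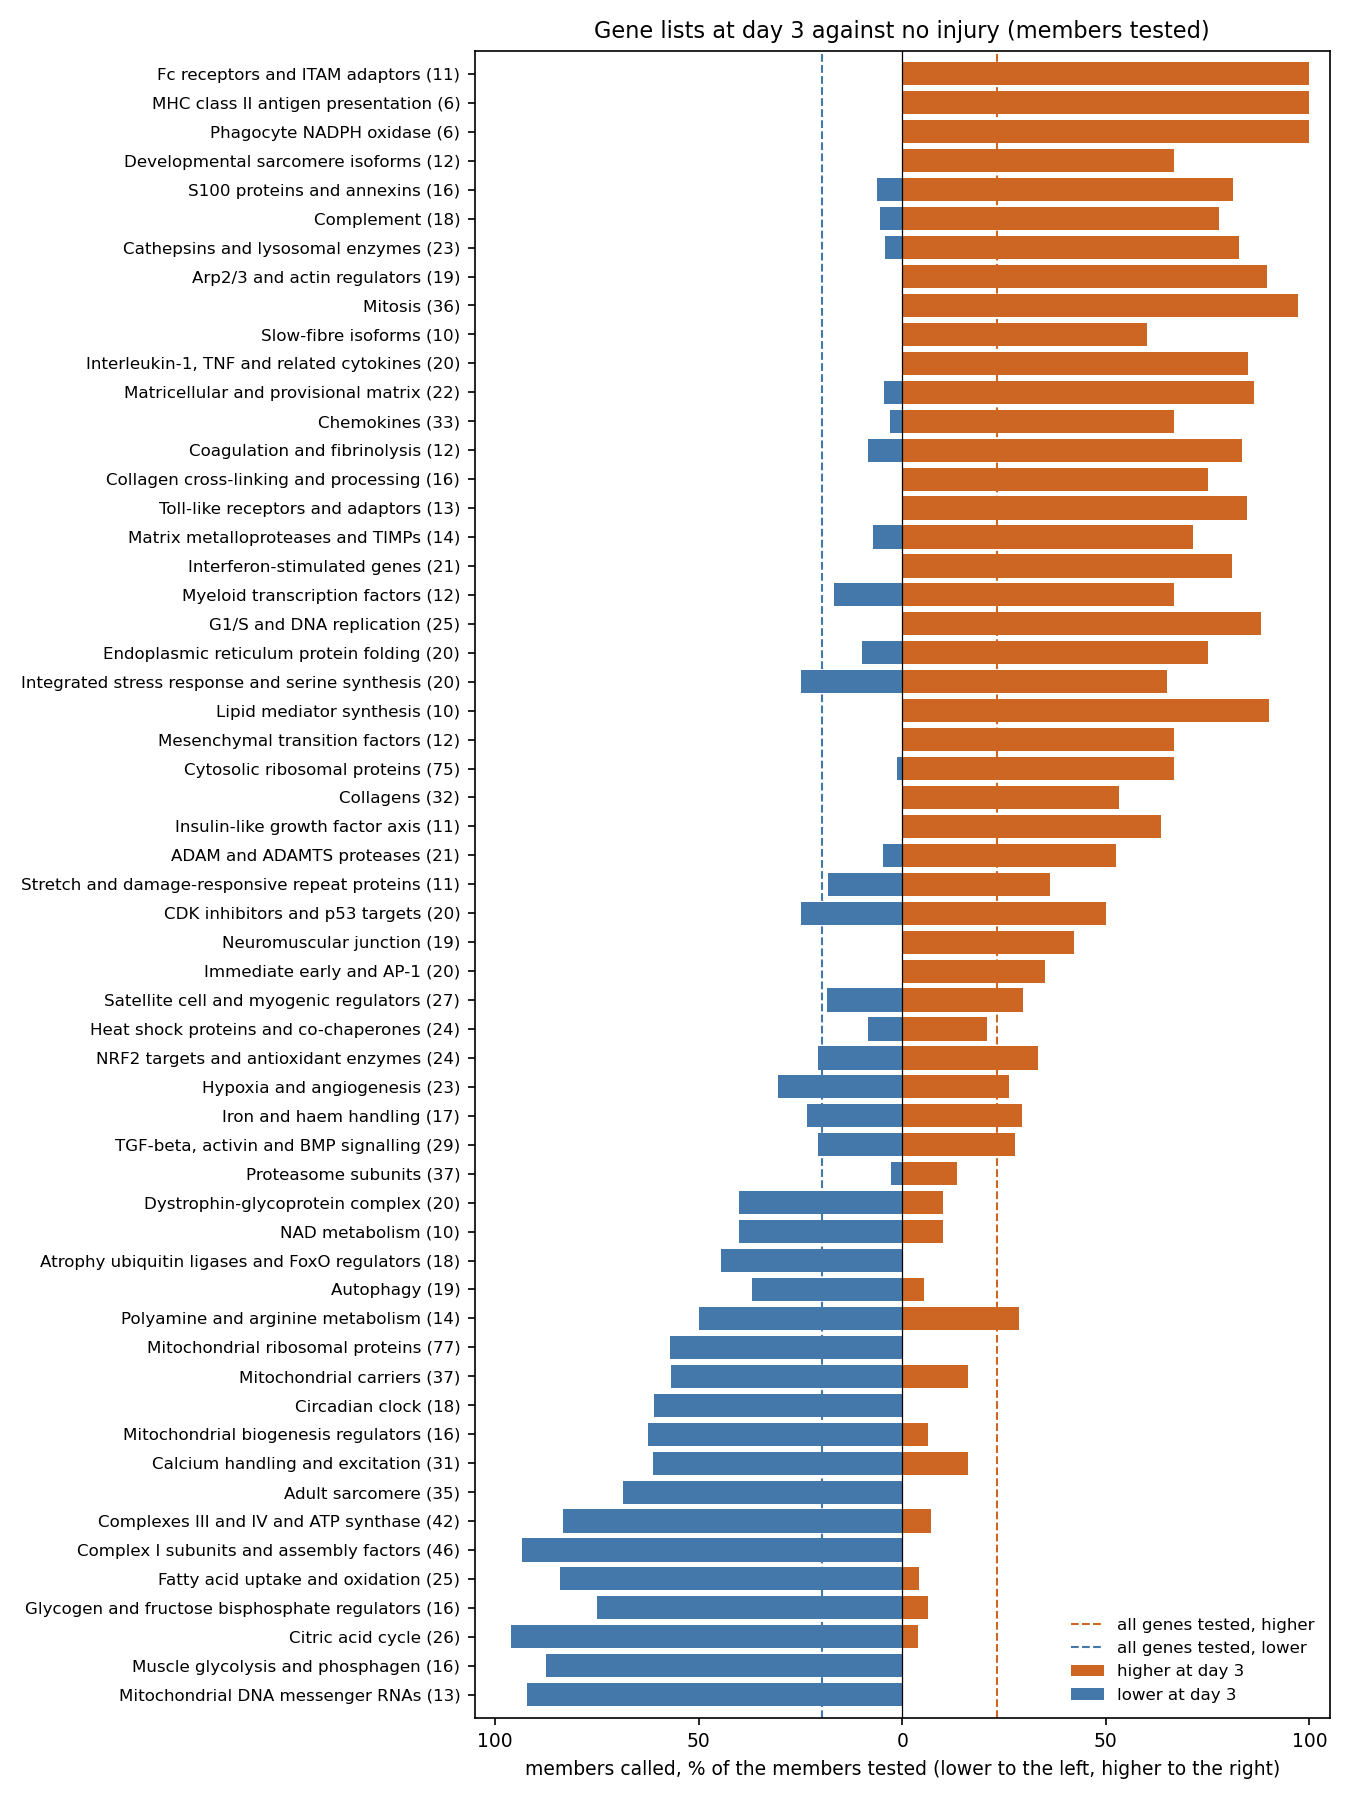
Bars give, for each list of genes, the percentage of its tested members (number in brackets) that were called higher at day 3 to the right and lower to the left, and dashed lines mark the same percentages over all genes tested. The Fc receptor, NADPH oxidase and class II lists fill the whole right side, and 25 of 26 genes of the citric acid cycle and 43 of 46 of complex I lie to the left.

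The genes with the largest increases were mostly products of phagocytes. Spp1 encodes osteopontin, a secreted glycoprotein of macrophages and matrix, and was 4.92, 2.68, 3.67, 0.296 and 0.995 FPKM in the 5 muscles without injury and 394, 261, 629.6, 763 and 15.5 FPKM in the 5 at day 3. The groups did not overlap, although replicate 5 was far lower than the other injured muscles, and the log2 difference was 6.31 ± 0.86 (SE, adjusted p = 4.56e-06). Lgals3, which encodes the carbohydrate-binding galectin-3 of macrophages, was 1.66, 0.688, 2.06, 0.874 and 2.28 FPKM without injury and 261, 156, 349.9, 382 and 45.5 FPKM at day 3, a log2 difference of 6.30 ± 0.59 (SE, adjusted p = 7.50e-08). Lyz2, the lysozyme of myeloid cells, reached the highest level among them, at 14.1, 19.3, 12.6, 17.6 and 20.7 FPKM without injury and 1212, 858, 1689, 1806 and 259 FPKM at day 3, a log2 difference of 5.77 ± 0.61 (SE, adjusted p = 2.66e-07). Its reads may be shared with the near-identical Lyz1. Cd68, a lysosomal glycoprotein of macrophages, differed by 5.53 ± 0.65 (SE, adjusted p = 8.08e-07) and Gpnmb, a membrane glycoprotein of lipid-laden macrophages, by 4.48 ± 0.68 (SE, adjusted p = 1.54e-05) on the log2 scale.

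**Figure D3:**
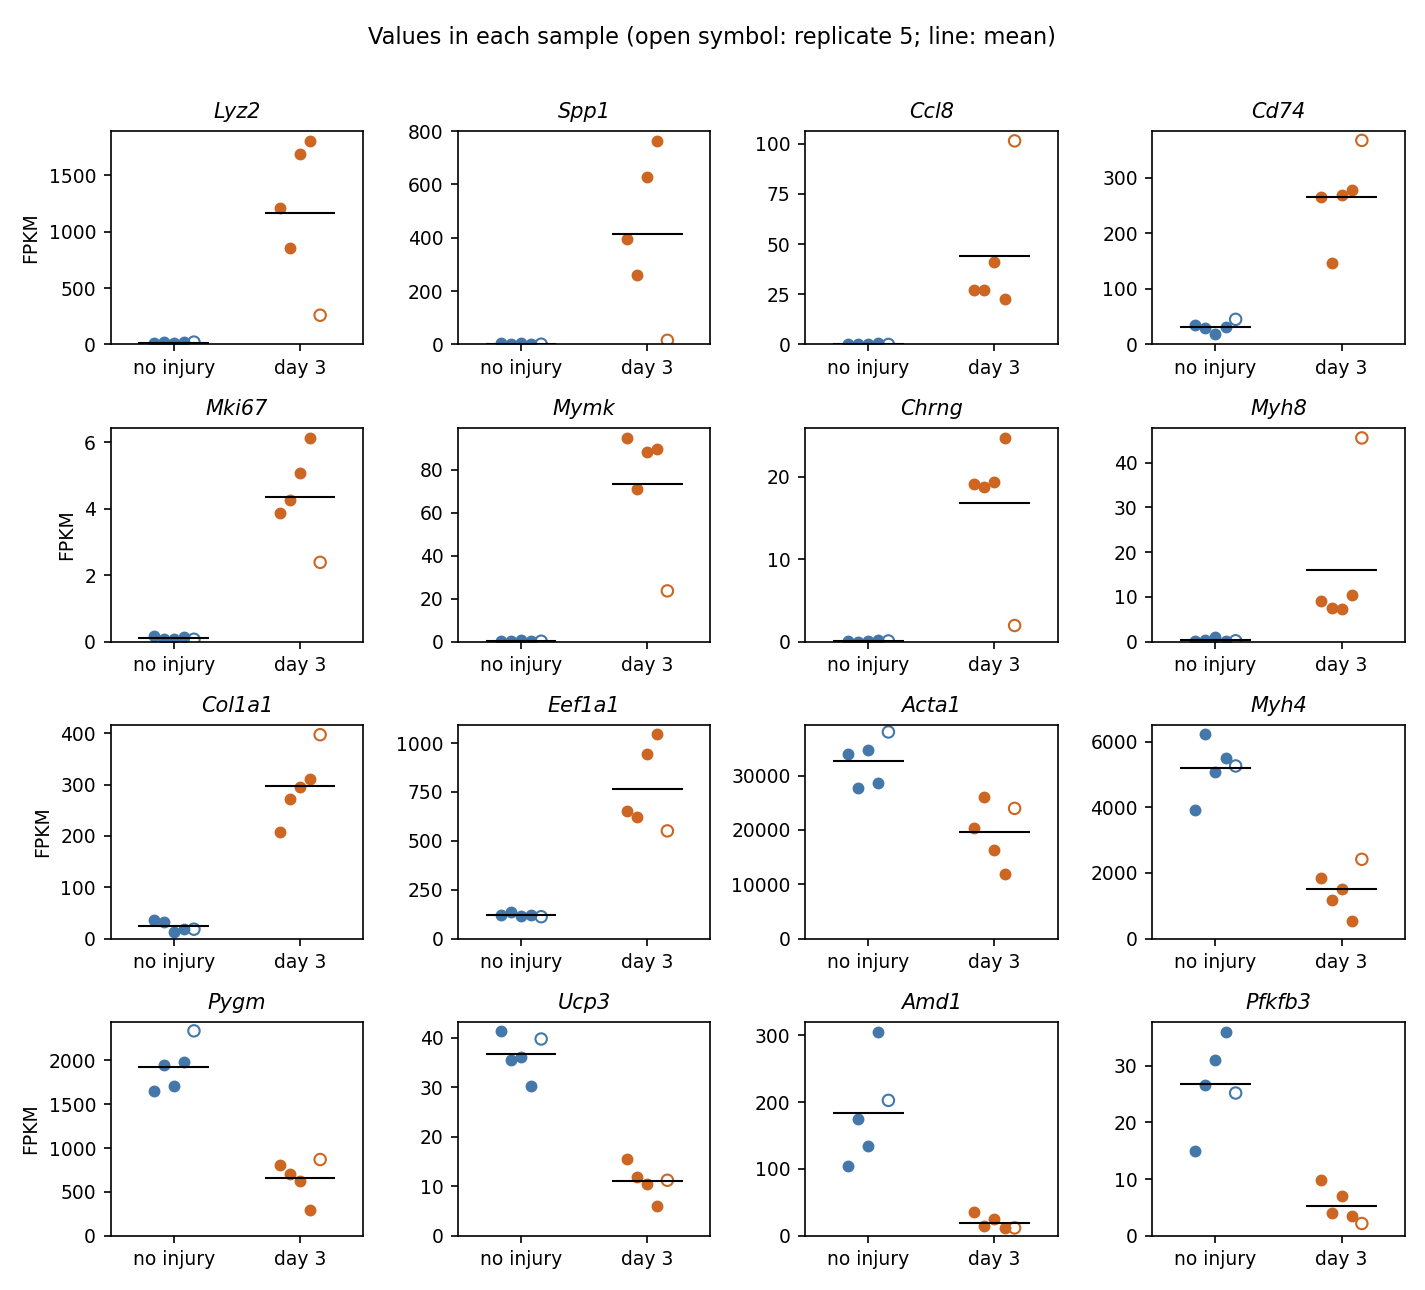
FPKM of 16 genes in each of the 5 samples without injury and the 5 at day 3, on linear axes from 0, with lines at the group means and an open symbol for replicate 5. Among the genes shown, Spp1, Lyz2 and Chrng are lowest at day 3 in replicate 5, Ccl8, Cd74, Myh8 and Col1a1 are highest in it, and Amd1 and Pfkfb3 lie below every uninjured muscle in each sample.

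Receptors that let phagocytes bind antibody-coated debris rose as a group. Of 13 listed Fc receptors and adaptors with ITAM motifs, the tyrosine-containing signalling sequences of immune receptors, 11 passed the filter on low values, and 11 of these 11 were higher, with a median log2 difference of 3.24 against 0.012 over all genes. Many genes of this kind are near 0 without injury and pass the filter only through injured samples, so such counts describe the list. Fcer1g, the signalling chain shared by several Fc receptors, was 3.01, 2.99, 5.95, 3.16 and 2.66 FPKM without injury and 180.3, 151, 209, 238 and 82.3 FPKM at day 3, a log2 difference of 5.21 ± 0.49 (SE, adjusted p = 7.50e-08). Tyrobp, the adaptor that pairs with Trem2, differed by 5.13 ± 0.58 (SE, adjusted p = 5.64e-07) on the log2 scale and Fcgr1, the high-affinity receptor for immunoglobulin G, by 3.47 ± 0.49 (SE, adjusted p = 6.86e-06). Of the 6 genes of the phagocyte NADPH oxidase, which makes superoxide, 6 were higher, and the membrane subunit Cybb was 0.0388, 0.290, 0.0587, 0.0420 and 0.212 FPKM without injury and 9.40, 5.08, 9.12, 9.998 and 3.54 FPKM at day 3. The toll-like receptor list had 11 of 13 tested genes higher, including Tlr2 at a log2 difference of 1.70 ± 0.30 (SE, adjusted p = 9.37e-05) and Tlr13 at 2.27 ± 0.35 (SE, adjusted p = 1.71e-05).

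Promoters of these receptors can be read for the core of the site of PU.1, the myeloid factor encoded by Spi1. Promoter sequences (250 bases before to 50 after a start site, RefSeq, GRCm38.p6) were found for 9374 of the 14630 genes. The letters GAGGAA, or TTCCTC on the other strand, stood in 66.7% of the 9 promoters of the Fc receptor list, in 26.6% of the promoters of genes tested and in 28.3% of all 32851 promoters of the table. They also stood in 47.4% of the 19 promoters of adult sarcomere genes, a list mostly lower at day 3, and in 0 of the 2 of the NADPH oxidase list. The promoters of the 3 members with the largest log2 differences among those with a sequence are shown with these letters in capitals. Fcer1g (chr1:171234300-171234599, minus strand) held none in this window, whereas Trem2 (chr17:48346151-48346450, plus strand) and Fcgr1 (chr3:96293920-96294219, minus strand) each held a match.
Fcer1g: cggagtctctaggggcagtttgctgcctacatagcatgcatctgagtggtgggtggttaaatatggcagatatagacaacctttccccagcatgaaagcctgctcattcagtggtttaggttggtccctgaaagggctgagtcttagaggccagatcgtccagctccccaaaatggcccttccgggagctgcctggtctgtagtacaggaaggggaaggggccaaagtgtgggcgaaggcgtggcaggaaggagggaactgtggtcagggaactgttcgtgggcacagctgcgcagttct
Trem2: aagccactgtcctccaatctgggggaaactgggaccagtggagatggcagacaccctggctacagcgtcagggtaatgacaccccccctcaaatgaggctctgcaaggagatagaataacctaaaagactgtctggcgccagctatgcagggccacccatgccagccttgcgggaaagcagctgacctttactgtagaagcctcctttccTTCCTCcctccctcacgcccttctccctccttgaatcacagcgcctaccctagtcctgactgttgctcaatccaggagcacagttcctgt
Fcgr1: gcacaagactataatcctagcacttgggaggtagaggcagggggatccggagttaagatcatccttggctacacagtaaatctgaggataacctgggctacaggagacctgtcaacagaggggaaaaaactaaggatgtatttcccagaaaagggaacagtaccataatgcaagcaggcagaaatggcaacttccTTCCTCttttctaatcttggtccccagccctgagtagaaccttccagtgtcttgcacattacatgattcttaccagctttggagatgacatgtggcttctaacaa
The match in Trem2 began 40 bases and that in Fcgr1 55 bases before the start site, both read on the opposite strand. Spi1 itself was 0.724, 0.172, 0.538, 0.814 and 0.7098 FPKM without injury and 21.2, 10.8, 30.8, 38.6 and 8.53 FPKM at day 3, a log2 difference of 3.66 ± 0.47 (SE, adjusted p = 2.69e-06), and did not overlap between the groups. A match is a description of letters and shows no binding.

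Most tested cytokine and chemokine genes were higher. A list of 30 cytokines and receptors held members of the interleukin-1 and TNF families and others such as Spp1, Tgfb1 and Csf1r. Of these 30 genes 20 passed the filter, and 17 of the 20 were higher and 0 lower. Some, such as Il1b, passed only through injured samples, so these counts describe the list and not the interleukin-1 and TNF families. Among the ligands, 6 of 7 tested higher, Tgfb1, a growth factor stored in latent form in matrix, differed by 2.35 ± 0.38 (SE, adjusted p = 3.33e-05) on the log2 scale, while Il1b, an alarm cytokine of myeloid cells, was 0, 0, 0.134, 0.170 and 0 FPKM without injury and 1.96, 0.930, 1.99, 1.01 and 0.616 FPKM at day 3. Its call (adjusted p = 0.0294) ended when 1 of 5 samples (adjusted p = 0.0514 to 0.0729) was left out. Tnf was 0.366, 0.319, 0.624, 0.446 and 0.750 FPKM without injury and 0.292, 0.149, 0.116, 0 and 0.315 FPKM at day 3 and was not called (adjusted p = 0.131), and Il6 did not pass the filter, with a mean of 0.173 FPKM at day 3. Among the receptors 11 of 13 tested were higher, led by Csf1r, the receptor that macrophages need to survive, at 1.09, 1.62, 0.593, 1.08 and 1.94 FPKM without injury and 32.4, 22.8, 39.0, 42.4 and 10.7 FPKM at day 3, a log2 difference of 3.64 ± 0.45 (SE, adjusted p = 1.87e-06). Il1rn, the natural antagonist of interleukin-1, did not pass the filter and had a mean of 1.13 FPKM at day 3 and 0.0136 FPKM without injury.

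Chemokine ligands that attract monocytes were prominent. Of 41 listed chemokine genes 33 passed the filter, 22 were higher and 1 lower. Some, such as Ccl8 and Ccr2, were below 0.5 FPKM in all uninjured muscles and passed only through injured samples, so these counts describe the list. Ccl8 was 0, 0, 0, 0.477 and 0 FPKM without injury and 27.1, 27.3, 41.2, 22.8 and 101.3 FPKM at day 3, highest in replicate 5 at day 3, and its log2 difference was 5.14 ± 0.47 (SE, adjusted p = 7.50e-08). Ccl7 differed by 4.02 ± 0.61 (SE, adjusted p = 1.57e-05) and Ccl2, the main ligand of the monocyte receptor Ccr2, by 3.02 ± 0.57 (SE, adjusted p = 1.68e-04) on the log2 scale. Ccr2 was 0.155, 0.404, 0.126, 0.156 and 0.283 FPKM without injury and 4.42, 2.64, 6.22, 7.62 and 2.91 FPKM at day 3. The neutrophil attractant Cxcl1 was 0.240, 0.682, 0.136, 1.04 and 1.02 FPKM without injury and 0.971, 0.359, 0.627, 0.679 and 0.602 FPKM at day 3, with groups that overlapped and no call (adjusted p = 0.925). Ccl11, which attracts eosinophils, was the member called lower, at 8.81, 13.6, 6.85, 14.6 and 13.2 FPKM without injury and 9.21, 6.05, 6.62, 4.06 and 8.69 FPKM at day 3, with groups that overlapped, and leaving out 1 of 6 samples (adjusted p = 0.0542 to 0.119) ended the call, as did the own total (-0.050, adjusted p = 0.859).

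Complement and lysosomal genes rose with the phagocytes. Of 18 complement genes tested 14 were higher and 1 lower, and the 3 chains of C1q, which macrophages make and which start the classical pathway, had the highest levels among them at day 3. C1qb was 7.87, 5.02, 7.44, 9.33 and 7.47 FPKM without injury and 315, 279, 443, 499 and 125 FPKM at day 3, a log2 difference of 5.18 ± 0.55 (SE, adjusted p = 2.66e-07). C3ar1, the receptor for the C3a fragment, differed by 3.51 ± 0.49 (SE, adjusted p = 6.85e-06), and Cd59a, which shields cells from the lytic complex, was lower by a log2 difference of -1.01 ± 0.30 (SE, adjusted p = 0.00819), a call that ended on the own total (-0.39, adjusted p = 0.154). Among 23 cathepsins and lysosomal enzymes 19 were higher and 1 lower, with a median log2 difference of 1.60. Ctss, the cathepsin that trims the invariant chain, was 1.71, 3.42, 2.13, 2.15 and 1.56 FPKM without injury and 379, 165, 436, 390.0 and 74.5 FPKM at day 3, a log2 difference of 6.26 ± 0.67 (SE, adjusted p = 2.86e-07). Ctsd, already abundant without injury, was 289.9, 253, 330.3, 265 and 279 FPKM without injury and 463, 596, 721, 826 and 171 FPKM at day 3, and with replicate 5 below every uninjured muscle it was not called (adjusted p = 0.0717), but it was higher on the own total (1.46, adjusted p = 0.00413) and without replicate 5 (1.17, adjusted p = 0.00346). Ctsf was lower, at -0.85 ± 0.23 (SE, adjusted p = 0.00377) on the log2 scale, though not called on the own total (-0.23, adjusted p = 0.462).

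Antigen presentation and interferon genes had another order among the injured muscles. The 6 tested of 7 listed genes of MHC class II presentation were higher in 6 of 6 cases, with log2 differences of 2.66 to 3.01. Cd74, the invariant chain that guides class II molecules, was 35.5, 29.4, 18.2, 31.9 and 45.2 FPKM without injury and 265, 147, 268, 277 and 367 FPKM at day 3, and H2-Aa was 8.89, 7.60, 6.14, 10.2 and 13.1 FPKM without injury and 77.0, 43.0, 73.6, 66.7 and 143 FPKM at day 3. Both were highest at day 3 in replicate 5, the sample with the least Lyz2 and Spp1. Of 21 interferon-stimulated genes 17 were higher and 0 lower, with Isg15, a ubiquitin-like modifier, at 6.06, 2.54, 2.03, 3.76 and 3.52 FPKM without injury and 16.6, 7.20, 13.3, 16.8 and 43.0 FPKM at day 3 and Oas1a, which senses double-stranded RNA, at a log2 difference of 2.17 ± 0.37 (SE, adjusted p = 6.47e-05). The list median per sample, as the log2 difference from the uninjured mean, was 1.82 in replicate 5 and 0.61 to 1.26 in the other injured muscles for interferon genes, and 3.52 against 2.22 to 2.98 for class II genes. For cathepsins the order was the opposite, at 0.61 in replicate 5 and 1.19 to 2.16 in the others. Replicate 5 also held more RNA of lymphocyte markers, with a sum of 4.48 FPKM over 7 T cell markers against 0.876 to 1.21 in the other injured and 0.381 to 0.986 in the uninjured muscles. The 6 natural killer cell markers summed to 8.99 FPKM in it, against 1.14 to 2.24 in the other injured and 0 to 1.76 in the uninjured muscles, and their part in these lists was not tested.

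**Figure D4:**
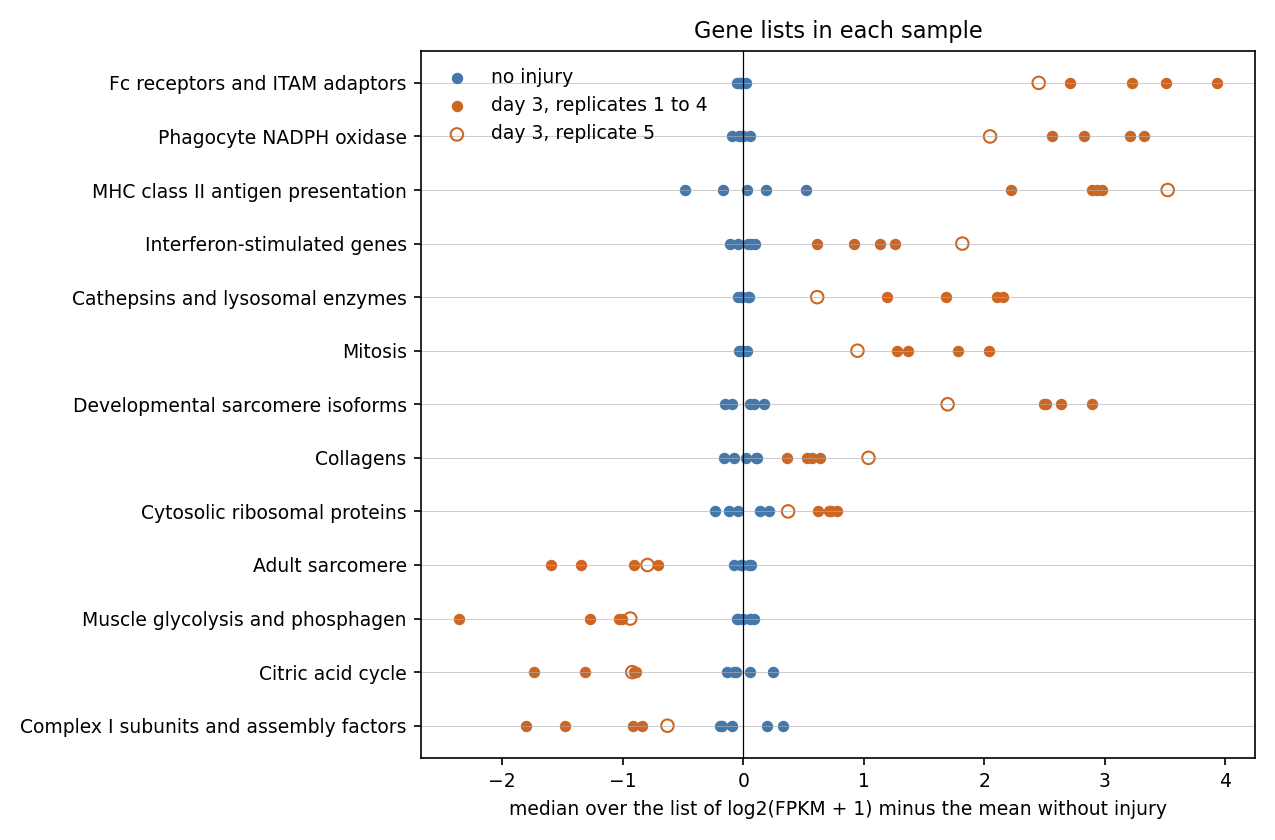
For 13 lists, each point is the median over the list's genes, in 1 sample, of log2(FPKM + 1) minus the gene's mean without injury, with an open symbol for replicate 5 of day 3. No list shown overlaps between the groups, and replicate 5 is the highest injured sample for the class II (3.52), interferon (1.82) and collagen (1.04) lists and the lowest for Fc receptors (2.45), cathepsins (0.61) and mitosis (0.95).

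Other inflammatory groups moved the same way. Of 16 S100 and annexin genes, calcium-binding proteins of stressed and migrating cells, 13 were higher and 1 lower, among them Anxa1, which restrains neutrophils, at 2.99 ± 0.29 (SE, adjusted p = 8.99e-08), and S100a1, the form of muscle fibres, lower by a log2 difference of -1.19 ± 0.26 (SE, adjusted p = 7.26e-04). Of 10 tested enzymes and carriers of lipid mediators 9 were higher, with Alox5ap, the partner of 5-lipoxygenase, at 3.19 ± 0.52 (SE, adjusted p = 3.87e-05), whereas the inducible cyclooxygenase Ptgs2 did not pass the filter and averaged 0.206 FPKM at day 3. In coagulation and fibrinolysis 10 of 12 tested genes were higher and 1 lower. Serpine2, an inhibitor of thrombin, was lower by a log2 difference of -0.99 ± 0.22 (SE, adjusted p = 6.66e-04), and not called on the own total (-0.37, adjusted p = 0.0561). Among 12 myeloid transcription factors 8 were higher, including Cebpa at 2.83 ± 0.32 (SE, adjusted p = 5.63e-07), and Maf and Nr4a1 were lower, the latter at -1.54 ± 0.44 (SE, adjusted p = 0.00616). Both calls ended on the own total (-0.15, adjusted p = 0.547 for Maf and -0.91, adjusted p = 0.0565 for Nr4a1).

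Cell division genes were nearly silent without injury and rose at day 3. Of 38 listed genes of mitosis 36 passed the filter and 35 were higher, with a median log2 difference of 1.495 and non-overlapping groups for 35. Genes near 0 without injury, such as Mki67 and Rrm2, pass the filter only through injured samples, so the counts in this paragraph describe the lists. Mki67, a protein of the mitotic chromosome surface used as a proliferation marker, was 0.157, 0.0866, 0.0847, 0.121 and 0.0679 FPKM without injury and 3.86, 4.27, 5.08, 6.13 and 2.38 FPKM at day 3, a log2 difference of 2.23 ± 0.28 (SE, adjusted p = 2.09e-06). Cdc20, the activator of the anaphase-promoting complex, differed by 3.17 ± 0.39 (SE, adjusted p = 1.32e-06), and Top2a, which untangles replicated DNA, by 2.10 ± 0.28 (SE, adjusted p = 3.10e-06) on the log2 scale. For entry into S phase 22 of 25 tested genes were higher and 0 lower, with Rrm2, the regulated subunit of ribonucleotide reductase, at 0.488, 0.294, 0.492, 0.352 and 0.394 FPKM without injury and 11.2, 7.19, 15.9, 17.6 and 4.31 FPKM at day 3. Among the injured muscles replicate 4 had the most and replicate 5 the least of Mki67, Rrm2 and Cdc20. The cells that divided cannot be named from whole muscle.

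Mitotic promoters carried a known cell cycle element more often than promoters in general. The CHR element, searched as TTTGAA or TTCAAA on the other strand, stood in 67.9% of the 28 promoters found for the mitosis list, in 11.4% of the promoters of genes tested and in 17.9% of all promoters of the table. Capitals mark it in the 3 members with the largest log2 differences among those with a sequence, Cdc20 (chr4:118437294-118437593, minus strand), Ccnb2 (chr9:70421505-70421804, minus strand) and Birc5 (chr11:117848987-117849286, plus strand).
Cdc20: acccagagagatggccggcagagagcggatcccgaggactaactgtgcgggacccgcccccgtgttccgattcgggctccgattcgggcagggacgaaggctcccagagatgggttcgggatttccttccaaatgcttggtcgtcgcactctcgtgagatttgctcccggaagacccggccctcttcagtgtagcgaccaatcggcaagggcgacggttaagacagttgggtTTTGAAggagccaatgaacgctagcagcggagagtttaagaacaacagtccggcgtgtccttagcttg
Ccnb2: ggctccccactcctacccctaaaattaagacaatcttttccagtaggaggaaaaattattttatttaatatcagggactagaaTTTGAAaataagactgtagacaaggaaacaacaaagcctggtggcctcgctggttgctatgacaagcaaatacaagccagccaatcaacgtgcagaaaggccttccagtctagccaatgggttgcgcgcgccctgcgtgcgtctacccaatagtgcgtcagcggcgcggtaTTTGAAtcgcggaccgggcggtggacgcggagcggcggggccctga
Birc5: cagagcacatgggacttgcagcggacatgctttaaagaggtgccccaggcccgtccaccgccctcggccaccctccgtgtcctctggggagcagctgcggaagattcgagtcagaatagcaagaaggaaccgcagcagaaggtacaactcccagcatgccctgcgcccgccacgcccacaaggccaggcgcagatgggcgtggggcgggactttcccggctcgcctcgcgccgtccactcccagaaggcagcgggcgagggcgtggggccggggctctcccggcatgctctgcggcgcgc
In Cdc20 the element began 18 bases before the start site, and in Ccnb2 it stood at 167 bases before and 5 after it. The window of Birc5 held none. Birc5 encodes survivin, of the chromosomal passenger complex, and was 0.199, 0.0683, 0.1002, 0.239 and 0 FPKM without injury and 6.75, 8.18, 11.1, 11.2 and 4.02 FPKM at day 3.

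Genes that hold the cycle back moved in both directions. Of 20 inhibitors of cyclin-dependent kinases and targets of p53, 10 were higher and 5 lower (12 and 0 on the own total). Cdkn1a, which encodes p21 and marks both p53 activity and myoblasts leaving the cycle, was 6.32, 5.43, 5.52, 5.12 and 3.90 FPKM without injury and 50.5, 46.1, 70.6, 75.7 and 19.7 FPKM at day 3, a log2 difference of 2.97 ± 0.60 (SE, adjusted p = 3.13e-04). Cdkn1c, which encodes p57, was 16.1, 14.4, 15.7, 15.7 and 13.1 FPKM without injury and 72.1, 47.6, 59.0, 63.7 and 88.2 FPKM at day 3, a log2 difference of 2.04 ± 0.27 (SE, adjusted p = 3.08e-06), and replicate 5 was the highest injured sample for it. Gadd45a rose by 1.80 ± 0.62 (SE, adjusted p = 0.0209), or 1.67 (adjusted p = 0.052) without replicate 4 of day 3, while Gadd45b fell, with a log2 difference of -1.03 ± 0.26 (SE, adjusted p = 0.00231), and the p53 target Ccng1 was also lower, by -1.11 ± 0.26 (SE, adjusted p = 0.00146) on the log2 scale. Neither was called on the own total (-0.39, adjusted p = 0.176 for Gadd45b and -0.45, adjusted p = 0.102 for Ccng1).

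Stress genes did not move as a block. In the integrated stress response 13 of 20 tested genes were higher and 5 lower. The higher ones included 8 enzymes of amino acid and one-carbon metabolism, with Phgdh, which starts serine synthesis, at 1.36, 0.117, 1.68, 0.523 and 0.687 FPKM without injury and 12.1, 9.30, 15.8, 17.3 and 3.21 FPKM at day 3, a log2 difference of 2.65 ± 0.43 (SE, adjusted p = 3.33e-05), Psat1 at 2.52 ± 0.34 (SE, adjusted p = 5.12e-06) and Asns at 1.79 ± 0.27 (SE, adjusted p = 1.24e-05). The regulator Atf4 itself was lower, at 107, 106, 137, 106 and 116 FPKM without injury and 68.1, 76.6, 56.8, 55.6 and 63.6 FPKM at day 3, but not called on the own total (-0.17, adjusted p = 0.284), and Chac1, which degrades glutathione, was lower by a log2 difference of -1.78 ± 0.43 (SE, adjusted p = 0.00152). On each sample's own total of reads the list had 13 genes higher and 1 lower. Of 20 chaperones and secretion factors of the endoplasmic reticulum 15 were higher and 2 lower, with Pdia3 at 1.96 ± 0.25 (SE, adjusted p = 2.64e-06). Of 24 heat shock proteins and co-chaperones 5 were higher and 2 lower on the deposited scale and 16 and 1 on the own total, and Hspb1, a small heat shock protein abundant in muscle, was 321, 234, 243, 235 and 243 FPKM without injury and 537, 1230.2, 485, 671 and 378 FPKM at day 3.

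Genes that break down haem and store its iron were among the larger increases of the stress groups. Hmox1, which opens the haem ring, was 4.07, 4.91, 6.47, 3.34 and 2.38 FPKM without injury and 95.0, 133, 154, 151 and 15.5 FPKM at day 3, a log2 difference of 4.11 ± 0.64 (SE, adjusted p = 2.24e-05), and was lowest at day 3 in replicate 5. Ftl1, the light chain of ferritin, was 71.6, 64.0, 88.5, 65.2 and 78.0 FPKM without injury and 719, 784, 1147, 1366 and 236 FPKM at day 3, a log2 difference of 3.31 ± 0.46 (SE, adjusted p = 6.57e-06), whereas the heavy chain Fth1 was 2354, 2115, 2424, 1950.2 and 2573 FPKM without injury and 2521, 1938, 2739.8, 2715 and 1493 FPKM at day 3 and was not called (adjusted p = 0.931) on the deposited scale but higher on each sample's own total (log2 difference 0.63, adjusted p = 0.0307). Tfrc, which imports transferrin iron, was lower in every sample, at a log2 difference of -1.63 ± 0.38 (SE, adjusted p = 0.00116). Over 17 tested genes of iron and haem 5 were higher and 4 lower, not far from the shares over all genes. On each sample's own total 8 were higher and 1 lower, and the median turned from -0.032 to 0.23. Among 24 tested NRF2 targets and antioxidant enzymes 8 were higher and 5 lower (15 and 2 on the own total). The higher ones included the metallothionein Mt1 at 2.57 ± 0.45 (SE, adjusted p = 7.37e-05), and the lower ones the mitochondrial enzymes Sod2 at -1.27 ± 0.23 (SE, adjusted p = 9.32e-05) and Prdx3 at -1.12 ± 0.19 (SE, adjusted p = 6.35e-05).

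Matrix genes rose together with their processing enzymes. Of 32 tested collagen genes 17 were higher and 0 lower. Of 16 tested genes of collagen cross-linking and processing 12 were higher and 0 lower. Lox, which cross-links collagen and elastin, was 0.999, 1.39, 1.26, 0.963 and 0.994 FPKM without injury and 15.5, 23.4, 22.7, 20.1 and 8.25 FPKM at day 3, a log2 difference of 3.09 ± 0.29 (SE, adjusted p = 7.50e-08), and Serpinh1, the collagen chaperone, differed by 2.33 ± 0.24 (SE, adjusted p = 2.52e-07). Among 22 tested matricellular and provisional matrix genes 19 were higher, with Postn, which encodes periostin, at 6.45, 2.79, 1.32, 1.45 and 0.864 FPKM without injury and 35.8, 58.2, 44.0, 41.1 and 63.5 FPKM at day 3, Tnc, which encodes tenascin-C, at 0.725, 0.665, 0.274, 0.199 and 0.237 FPKM without injury and 14.0, 22.6, 15.2, 13.8 and 3.57 FPKM at day 3, and Thbs1 at a log2 difference of 2.12 ± 0.39 (SE, adjusted p = 1.28e-04). Vtn, which encodes vitronectin, was the member that was lower, at -1.48 ± 0.29 (SE, adjusted p = 2.85e-04). Replicate 5 was lowest at day 3 for Tnc and highest for Postn.

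Proteases and growth factors of the matrix were mixed. Of 14 tested metalloproteases and their inhibitors 10 were higher and 1 lower, and the inhibitor that was lower was Timp4, at -1.60 ± 0.48 (SE, adjusted p = 0.00877) on the log2 scale. Mmp3 was 0.334, 0.290, 0.615, 0.135 and 0.379 FPKM without injury and 2.90, 1.29, 4.95, 1.66 and 3.31 FPKM at day 3, and Mmp9 was 0.382, 0.460, 0.217, 0.528 and 0.174 FPKM without injury and 0.9749, 1.02, 1.52, 4.60 and 0.0930 FPKM at day 3, with overlapping groups and no call, though higher on the own total (1.03, adjusted p = 0.0368) and without replicate 5 of day 3 (1.03, adjusted p = 0.0147). Adam8 and Adam12 differed by 2.93 ± 0.46 (SE, adjusted p = 2.15e-05) and 1.57 ± 0.20 (SE, adjusted p = 2.64e-06) on the log2 scale. In TGF-β, activin and BMP signalling 8 of 29 tested genes were higher and 6 lower, close to the shares over all genes, and on each sample's own total 12 and 1, where the median turned from -0.040 to 0.48. Fstl1, which binds activins and BMPs, was 7.01, 7.48, 3.82, 5.54 and 5.80 FPKM without injury and 28.8, 43.5, 37.1, 34.5 and 59.8 FPKM at day 3 and Bmp6 was lower, at a log2 difference of -1.25 ± 0.27 (SE, adjusted p = 5.83e-04). Of 11 tested genes of the insulin-like growth factor axis 7 were higher, with Igf1 at 3.32, 4.26, 4.53, 3.74 and 2.99 FPKM without injury and 6.40, 7.46, 6.01, 5.70 and 11.02 FPKM at day 3 and Igfbp4 at a log2 difference of 1.82 ± 0.31 (SE, adjusted p = 5.96e-05).

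Genes of hypoxia and vessel growth moved in both directions. Of 23 hypoxia and angiogenesis genes 6 were higher and 7 lower, not far from the shares over all genes (23.4% and 19.8%), so these counts set the list little apart. Vegfa, the main growth factor of vessels, was 48.0, 49.5, 52.98, 64.9 and 43.6 FPKM without injury and 16.4, 15.3, 9.02, 6.51 and 35.1 FPKM at day 3, below every uninjured muscle in all 5 samples, with a log2 difference of -1.80 ± 0.40 (SE, adjusted p = 7.73e-04). Its receptor Kdr was 10.4, 9.01, 9.39, 9.67 and 9.43 FPKM without injury and 3.93, 3.22, 2.19, 2.71 and 4.40 FPKM at day 3, a log2 difference of -1.33 ± 0.20 (SE, adjusted p = 1.85e-05). Kdr was 1 of 3 endothelial markers called lower among 8, with 0 higher and a median log2 difference of -0.37. Others such as Pecam1 were not called (19.5, 14.96, 17.02, 17.03 and 13.3 FPKM without injury and 12.2, 17.2, 13.2, 15.8 and 28.01 FPKM at day 3). Egln1, the oxygen-sensing hydroxylase that marks HIF1α for decay, was lower by -1.50 ± 0.25 (SE, adjusted p = 5.58e-05) on the log2 scale, and Hif1a was higher by 0.98 ± 0.20 (SE, adjusted p = 4.16e-04). On each sample's own total of reads the list had 9 genes higher and 4 lower, and its median was 0.042 on the deposited scale, 0.40 on the own total and -0.054 after quantile normalization.

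Some genes of myogenic commitment and fusion rose strongly. Of 27 tested genes of satellite cells and myogenesis 8 were higher and 5 lower (14 and 1 on the own total), near the shares over all genes on the deposited scale. Myog, the factor of terminal differentiation, was 2.51, 1.63, 2.34, 0.761 and 1.65 FPKM without injury and 197, 129.7, 203, 195 and 39.6 FPKM at day 3, a log2 difference of 5.63 ± 0.78 (SE, adjusted p = 6.34e-06). Myod1, which commits cells to the lineage, was 16.5, 13.9, 21.4, 22.6 and 21.1 FPKM without injury and 90.0, 72.0, 86.9, 95.2 and 31.4 FPKM at day 3, a log2 difference of 1.85 ± 0.34 (SE, adjusted p = 1.15e-04), and Pax7, the marker of satellite cells, was 0.448, 0.535, 0.669, 0.665 and 0.128 FPKM without injury and 1.41, 0.782, 1.24, 1.35 and 0.978 FPKM at day 3 (log2 difference 0.54 ± 0.16 (SE, adjusted p = 0.00845)). Myf5 was not called (adjusted p = 0.142) except on some other scales, such as the own total (0.91, adjusted p = 0.0367). The fusogens, membrane proteins that merge myoblasts, were among the largest changes. Mymk, which encodes myomaker, was 0.0994, 0.192, 0.620, 0.161 and 0.136 FPKM without injury and 94.8, 71.0, 88.3, 89.9 and 23.6 FPKM at day 3, a log2 difference of 5.77 ± 0.65 (SE, adjusted p = 5.45e-07), and Mymx, which encodes myomerger, was 0, 0, 0, 0 and 0.466 FPKM without injury and 52.4, 29.6, 51.1, 52.9 and 8.42 FPKM at day 3, a log2 difference of 4.96 ± 0.79 (SE, adjusted p = 2.76e-05). Both were 2-fold or more lower in replicate 5 than in any other injured muscle.

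Sarcomere isoforms of developing fibres rose while those of adult fibres fell. Of 12 developmental isoforms 8 were higher and 0 lower, with a median log2 difference of 2.72. Some, such as Myh8, passed the filter mainly through injured samples, so these counts describe the list. Myh3, the embryonic myosin, was 0.669, 0.566, 0.633, 0.228 and 0.485 FPKM without injury and 62.6, 57.0, 58.0, 69.6 and 28.8 FPKM at day 3, a log2 difference of 5.16 ± 0.68 (SE, adjusted p = 3.23e-06). Myh8 was 0.198, 0.232, 0.985, 0.193 and 0.168 FPKM without injury and 9.15, 7.58, 7.16, 10.3 and 45.5 FPKM at day 3, highest in replicate 5, and its log2 difference was 3.30 ± 0.74 (SE, adjusted p = 9.07e-04). Tnnt2, the cardiac and embryonic troponin T, differed by 3.79 ± 0.44 (SE, adjusted p = 6.41e-07) and Myl4, the embryonic light chain, by 3.68 ± 0.55 (SE, adjusted p = 1.32e-05). Actc1, the cardiac actin, overlapped between groups at 426, 369, 102, 191 and 138 FPKM without injury and 371, 222, 264, 226 and 722 FPKM at day 3.

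Of 35 adult sarcomere genes 24 were lower and 0 higher, with a median log2 difference of -1.03, and on each sample's own total of reads 14 were lower. Myh4, the myosin of the fastest fibres, was 3917, 6229, 5075, 5492 and 5260.3 FPKM without injury and 1861, 1166, 1507, 535 and 2416 FPKM at day 3, a log2 difference of -1.94 ± 0.43 (SE, adjusted p = 7.98e-04). Acta1, the skeletal actin, was 33886, 27749, 34766, 28640.3 and 38017 FPKM without injury and 20368, 26006, 16273, 11868 and 23958 FPKM at day 3, a smaller log2 difference of -0.77 ± 0.31 (SE, adjusted p = 0.0480). The call of Acta1 ended when 1 of 10 samples (adjusted p = 0.0502 to 0.145) was left out, and its difference was -0.11 on each sample's own total, 0.050 on a common sum and 0.49 after quantile normalization, so its direction depends on the scale. Mylk2, the kinase of the fast light chain, fell by more, at -1.98 ± 0.34 (SE, adjusted p = 6.08e-05). Mylpf showed how replicate 5 differs, at 12564, 13967, 12763, 12996 and 12274 FPKM without injury and 5889, 5667, 4738, 3534 and 15749.8 FPKM at day 3, where the other injured muscles were below and replicate 5 above the uninjured range. Its log2 difference was -1.07 ± 0.39 (SE, adjusted p = 0.0297) and -1.41 (adjusted p = 0.00388) without replicate 5, and leaving out 1 of 5 samples (adjusted p = 0.0505 to 0.0978) ended the call, as did the own total (-0.40, adjusted p = 0.229). Among 10 slow-fibre isoforms 6 were higher and 0 lower, led by the troponin Tnni1 at 1.13, 1.32, 3.29, 1.15 and 0.588 FPKM without injury and 33.6, 41.7, 36.02, 41.6 and 33.2 FPKM at day 3, but the slow myosin Myh7 was not called (adjusted p = 0.890) and Myl3 was at -1.54 ± 0.74 (SE, adjusted p = 0.0941), not called.

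Calcium handling genes were lower in larger number than higher on the deposited scale. Of 31 genes of calcium handling and excitation 19 were lower and 5 higher, against 12 and 9 on the own total and 6 and 9 on a common sum of FPKM. Pvalb, the calcium buffer of fast fibres, was 13676, 21910.0, 24764, 17399 and 18549 FPKM without injury and 4607, 4395, 2997, 1264 and 10251 FPKM at day 3, a log2 difference of -2.31 ± 0.53 (SE, adjusted p = 0.00101). Mrln, a peptide that restrains the calcium pump Atp2a1, was lower by -2.09 ± 0.42 (SE, adjusted p = 3.04e-04), Ryr1, the release channel, by -1.29 ± 0.21 (SE, adjusted p = 4.40e-05), and Atp2a1 by -1.46 ± 0.30 (SE, adjusted p = 3.73e-04) on the log2 scale. The exceptions included Sln, another inhibitory peptide of the pump, at 1.88, 2.42, 2.39, 1.17 and 1.30 FPKM without injury and 34.4, 45.9, 34.6, 55.8 and 138 FPKM at day 3, and Rrad, which holds down calcium channels, at 1.19, 0.921, 5.46, 0.927 and 1.60 FPKM without injury and 34.2, 44.9, 56.3, 62.0 and 11.8 FPKM at day 3. Sln was highest and Rrad lowest in replicate 5 among the injured muscles.

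RNA of the fetal receptor subunit of the neuromuscular junction was higher at day 3, and where in the muscle it was made was not tested. Of 19 tested genes of the junction 8 were higher and 0 lower (13 and 0 on the own total). Some, such as Chrng, passed the filter only through injured samples, so these counts describe the list. Chrng, the γ subunit of the acetylcholine receptor that fetal and denervated fibres use, was 0.0361, 0, 0.0614, 0.137 and 0.0656 FPKM without injury and 19.1, 18.8, 19.3, 24.7 and 1.94 FPKM at day 3, a log2 difference of 3.76 ± 0.56 (SE, adjusted p = 1.23e-05). Chrna1 and Chrnd differed by 3.04 ± 0.59 (SE, adjusted p = 2.03e-04) and 2.32 ± 0.50 (SE, adjusted p = 6.07e-04) on the log2 scale. Chrne, the adult ε subunit, was 9.37, 19.2, 13.7, 9.81 and 11.9 FPKM without injury and 5.59, 9.04, 2.38, 1.92 and 15.9 FPKM at day 3, and it was not called (adjusted p = 0.0582), although without replicate 5, its highest injured sample, it was lower (-1.40, adjusted p = 0.0114). Musk, the kinase that organises the synapse, rose by 0.83 ± 0.24 (SE, adjusted p = 0.00763), and Runx1, a factor that rises in denervated muscle, by 2.05 ± 0.40 (SE, adjusted p = 2.10e-04).

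The E-box CAGCTG, a palindrome bound by MyoD and myogenin, stood in 41.7% of the 12 promoters found for the junction list, in 15.2% of the promoters of genes tested and in 16.3% of all promoters of the table. It was not particular to lists that rose, for 42.1% of the 19 promoters of the adult sarcomere list, mostly lower at day 3, held it. In the satellite cell and myogenic list the E-box stood in 7.14% of 14 promoters. Capitals mark it in Chrng (chr1:87205561-87205860, plus strand), Chrna1 (chr2:73580289-73580588, minus strand) and Runx1 (chr16:92826025-92826324, minus strand), the members with the largest log2 differences among those with a sequence.
Chrng: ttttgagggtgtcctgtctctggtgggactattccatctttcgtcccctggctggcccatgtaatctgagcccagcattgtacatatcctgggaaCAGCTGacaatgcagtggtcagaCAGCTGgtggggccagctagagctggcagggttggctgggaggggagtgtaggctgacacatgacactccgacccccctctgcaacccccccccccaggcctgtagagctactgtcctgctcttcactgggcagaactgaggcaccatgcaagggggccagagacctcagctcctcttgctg
Chrna1: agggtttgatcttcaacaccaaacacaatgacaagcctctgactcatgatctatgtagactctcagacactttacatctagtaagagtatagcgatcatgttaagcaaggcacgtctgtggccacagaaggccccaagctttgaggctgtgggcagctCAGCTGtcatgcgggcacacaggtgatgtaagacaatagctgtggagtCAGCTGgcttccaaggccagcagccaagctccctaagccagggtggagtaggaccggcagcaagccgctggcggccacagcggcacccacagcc
Runx1: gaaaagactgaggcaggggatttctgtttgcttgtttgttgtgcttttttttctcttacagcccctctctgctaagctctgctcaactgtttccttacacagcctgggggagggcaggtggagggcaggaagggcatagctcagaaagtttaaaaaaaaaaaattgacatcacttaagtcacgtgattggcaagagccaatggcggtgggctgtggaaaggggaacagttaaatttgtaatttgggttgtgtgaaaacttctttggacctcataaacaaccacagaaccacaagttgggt
Chrng held it 155 and 132 bases and Chrna1 92 and 44 bases before the start site, and Runx1 held none in this window. The RefSeq start of Chrng lies 1154 bases from the start of the gene in the deposited annotation, so that its window may not be the promoter used there.

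The muscle genes of glycolysis were lower with few exceptions on the deposited scale. The widely expressed forms Eno1, Pgam1 and Pfkp were called higher, at log2 differences of 1.92, 1.86 and 0.68. Of 16 tested genes of muscle glycolysis and the phosphagen system 14 were lower and 0 higher (8 lower on each sample's own total), with a median log2 difference of -1.31. Pygm, which releases glucose from glycogen, was 1656, 1943, 1712, 1980.5 and 2336 FPKM without injury and 807, 701, 619, 297 and 868 FPKM at day 3, a log2 difference of -1.63 ± 0.33 (SE, adjusted p = 3.02e-04). Pfkm, the committing enzyme of muscle glycolysis, was lower by -1.65 ± 0.30 (SE, adjusted p = 1.29e-04) and Ckm, the creatine kinase of the sarcomere, by -1.43 ± 0.33 (SE, adjusted p = 0.00125). Regulators of glycogen and of fructose bisphosphate followed, with 12 of 16 lower and 1 higher (8 and 1 on the own total). Pfkfb3, which makes the activator of phosphofructokinase and is inducible by hypoxia, was 15.01, 26.7, 31.0, 36.1 and 25.2 FPKM without injury and 9.83, 4.03, 7.07, 3.43 and 2.15 FPKM at day 3, a log2 difference of -2.23 ± 0.32 (SE, adjusted p = 7.32e-06). Gapdh is no reference here, because its FPKM without injury ranged from 15.7 to 713, and pseudogenes share its sequence.

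Genes of several mitochondrial compartments were lower. In the citric acid cycle list 25 of 26 genes were lower (13 on each sample's own total, 3 on a common sum of FPKM), and Pdk3, a kinase that inhibits pyruvate dehydrogenase, was higher by 1.33 ± 0.27 (SE, adjusted p = 3.02e-04). Of 46 complex I genes 43 were lower and 0 higher, with a median log2 difference of -1.15. On each sample's own total 21 were lower and 2 higher, and on a common sum 9 and 2. Of 42 tested genes of complexes III and IV and the ATP synthase 35 were lower and 3 higher (14 and 3 on the own total, 6 and 3 on a common sum). The messenger RNAs encoded in mitochondrial DNA were lower for 12 of 13 (9 on the own total, 10 on a common sum and 4 after quantile normalization). Among them mt-Co2 was 2498, 2378, 5486, 5798 and 1532 FPKM without injury and 1289.9, 785, 409.6, 309 and 808 FPKM at day 3, a log2 difference of -2.29 ± 0.52 (SE, adjusted p = 0.00101). Mitochondrial ribosomal proteins were lower for 44 of 77 and higher for 0 at a median log2 difference of -0.52, but on each sample's own total their median was 0.11, with 7 higher and 1 lower.

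Uptake and burning of fat showed the same direction. Of 25 tested genes 21 were lower and 1 higher (10 and 1 on the own total, 6 and 1 on a common sum), the latter being Cpt1a, the widely expressed gate of fatty acid entry into mitochondria, at 1.02 ± 0.25 (SE, adjusted p = 0.00205). Fabp3, the fatty acid carrier of muscle, was 1542, 791, 967, 726 and 818 FPKM without injury and 333, 306, 163, 148 and 360.3 FPKM at day 3, a log2 difference of -1.92 ± 0.33 (SE, adjusted p = 6.43e-05). Ucp3, an uncoupling protein of muscle mitochondria, was 41.4, 35.5, 36.1, 30.2 and 39.7 FPKM without injury and 15.4, 11.8, 10.5, 6.08 and 11.2 FPKM at day 3, with no overlap between the groups and an adjusted p of 1.20e-07. Among 16 tested regulators of mitochondrial number 10 were lower and 1 higher (3 and 4 on the own total). Ppargc1a, the coactivator PGC-1α, was 4.45, 4.86, 6.22, 4.51 and 3.69 FPKM without injury and 1.90, 1.66, 1.01, 0.719 and 2.23 FPKM at day 3, a log2 difference of -1.22 ± 0.20 (SE, adjusted p = 4.54e-05), and Perm1, which acts with it in muscle, was 121, 75.5, 93.8, 72.8 and 93.2 FPKM without injury and 30.1, 33.4, 15.9, 6.98 and 21.0 FPKM at day 3, a log2 difference of -2.18 ± 0.39 (SE, adjusted p = 1.02e-04). On a common sum of FPKM per sample the median of these regulators was 0.060 and that of the deposited scale -0.58, so that their direction as a list depended on the scale.

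The largest decreases lay in polyamine metabolism. Amd1, which makes the aminopropyl donor for spermidine and spermine, was 104, 174, 134, 305 and 202 FPKM without injury and 34.7, 14.2, 24.6, 11.2 and 11.6 FPKM at day 3, a log2 difference of -3.23 ± 0.68 (SE, adjusted p = 4.84e-04), though its reads may be shared with the near-identical Amd2. Smox, which oxidises spermine, was 127, 128, 94.4, 141 and 138 FPKM without injury and 32.5, 14.4, 23.3, 6.41 and 18.2 FPKM at day 3, a log2 difference of -2.82 ± 0.58 (SE, adjusted p = 4.11e-04). In contrast Sat1, which acetylates polyamines for export, was 10.4, 10.2, 11.5, 9.52 and 7.73 FPKM without injury and 38.1, 25.9, 43.3, 48.4 and 21.8 FPKM at day 3, and Srm, the spermidine synthase, was 6.57, 6.29, 6.50, 7.67 and 5.81 FPKM without injury and 21.6, 23.9, 30.4, 32.9 and 12.5 FPKM at day 3. Odc1, the first enzyme of the pathway, was not called (adjusted p = 0.817). Of 14 tested genes of polyamine and arginine metabolism 4 were higher and 7 lower, and on each sample's own total 5 and 4, where the median turned from -0.44 to 0.018. Arg1, the arginase of alternatively activated macrophages, was 0, 0, 0.0383, 0 and 0 FPKM without injury and 2.45, 1.43, 5.05, 3.59 and 0.527 FPKM at day 3.

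Genes that degrade muscle protein in atrophy were lower or not called. Of 18 ubiquitin ligases and FoxO regulators 8 were lower and 0 higher, although on each sample's own total 5 were higher and 3 lower and the median changed sign, from -0.28 to 0.18. Fbxo32, the atrophy ligase atrogin-1, was 25.2, 30.1, 33.1, 42.6 and 30.2 FPKM without injury and 13.5, 11.9, 20.9, 15.3 and 4.37 FPKM at day 3, a log2 difference of -1.34 ± 0.30 (SE, adjusted p = 8.33e-04) but no call on the own total (-0.71, adjusted p = 0.112), and Trim63, which encodes MuRF1, was 58.1, 70.6, 60.7, 80.3 and 62.5 FPKM without injury and 50.3, 49.5, 93.0, 64.3 and 29.04 FPKM at day 3 and was not called (adjusted p = 0.389). Of 19 autophagy genes 7 were lower and 1 higher on the deposited scale and 2 lower and 5 higher on each sample's own total, where the median turned from -0.31 to 0.24. Pink1, the sensor kinase of damaged mitochondria, was lower on both scales, at a log2 difference of -1.71 ± 0.26 (SE, adjusted p = 2.04e-05). Of 37 tested proteasome subunits 5 were higher and 1 lower (24 and 0 on each sample's own total, where the median turned from -0.083 to 0.57), and Psmb8 and Psmb10, catalytic subunits of the immunoproteasome, were among the higher ones, with log2 differences of 1.15 ± 0.28 (SE, adjusted p = 0.00165) and 0.73 ± 0.24 (SE, adjusted p = 0.0138).

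Genes of the circadian clock and of NAD metabolism were lower in part. Of 18 tested clock genes 11 were lower and 0 higher, with Nr1d1, the repressor REV-ERBα, at 58.9, 58.2, 52.4, 61.0 and 61.3 FPKM without injury and 27.2, 26.3, 22.3, 20.8 and 13.7 FPKM at day 3 and Arntl, which encodes BMAL1, at 2.04, 2.98, 1.28, 2.40 and 1.83 FPKM without injury and 0.440, 0.431, 0.458, 0.648 and 0.750 FPKM at day 3. On each sample's own total 3 were lower and 2 higher, Nr1d1 was not called (-0.75, adjusted p = 0.0538) and the median turned from -0.56 to 0.0058, and the hour of collection is not given in the sources used here. In NAD metabolism Nmrk2, the nicotinamide riboside kinase of muscle, was 221, 175, 221, 237 and 197 FPKM without injury and 104, 62.5, 71.0, 26.4 and 43.9 FPKM at day 3, a log2 difference of -1.89 ± 0.28 (SE, adjusted p = 1.56e-05), and Nnmt, which methylates nicotinamide, was higher by 1.82 ± 0.26 (SE, adjusted p = 7.02e-06). Over 10 tested genes of NAD metabolism 4 were lower and 1 higher, and 3 and 2 on each sample's own total, where the median turned from -0.24 to 0.22.

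Many proteins of muscle have a muscle-specific and a widely expressed paralogue, and the pairs moved apart. For 24 pairs chosen by function, both genes passed the filter in 22. The muscle gene was lower in 21 of these, the other gene higher in 19, and both in 18, with median log2 differences of -1.44 and 1.20. The elongation factor Eef1a1 was 123, 136, 115, 120.0 and 112 FPKM without injury and 651, 624, 944, 1047 and 551 FPKM at day 3, whereas Eef1a2, the form of adult muscle and neurons, was 992, 829, 715, 723 and 1282 FPKM without injury and 548, 560.0, 447, 341 and 635 FPKM at day 3. The call of Eef1a2 (adjusted p = 0.0208) was lost without replicate 5 of no injury (0.0666) or replicate 4 of day 3 (0.0701) and on the own total (-0.17, adjusted p = 0.619). Eef1a1 made up 8.03 to 14.2% of the summed FPKM of the pair without injury and 46.5 to 75.4% at day 3. Cfl1 made up 20.2 to 28.02% of its pair with Cfl2 without injury and 56.4 to 76.1% at day 3, while Cfl2 itself was not called (adjusted p = 0.808). Cox8a, the widely expressed subunit of cytochrome c oxidase, rose against Cox8b from 2.97 to 4.22% to 11.4 to 38.5%. The exception among the oxidase subunits was Cox7a2, lower by -1.09 ± 0.29 (SE, adjusted p = 0.00416) though not called on the own total (-0.42, adjusted p = 0.0685), beside Cox7a1 at -1.82 ± 0.41 (SE, adjusted p = 8.60e-04). Shares within a pair do not depend on the scale between samples.

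**Figure D5:**
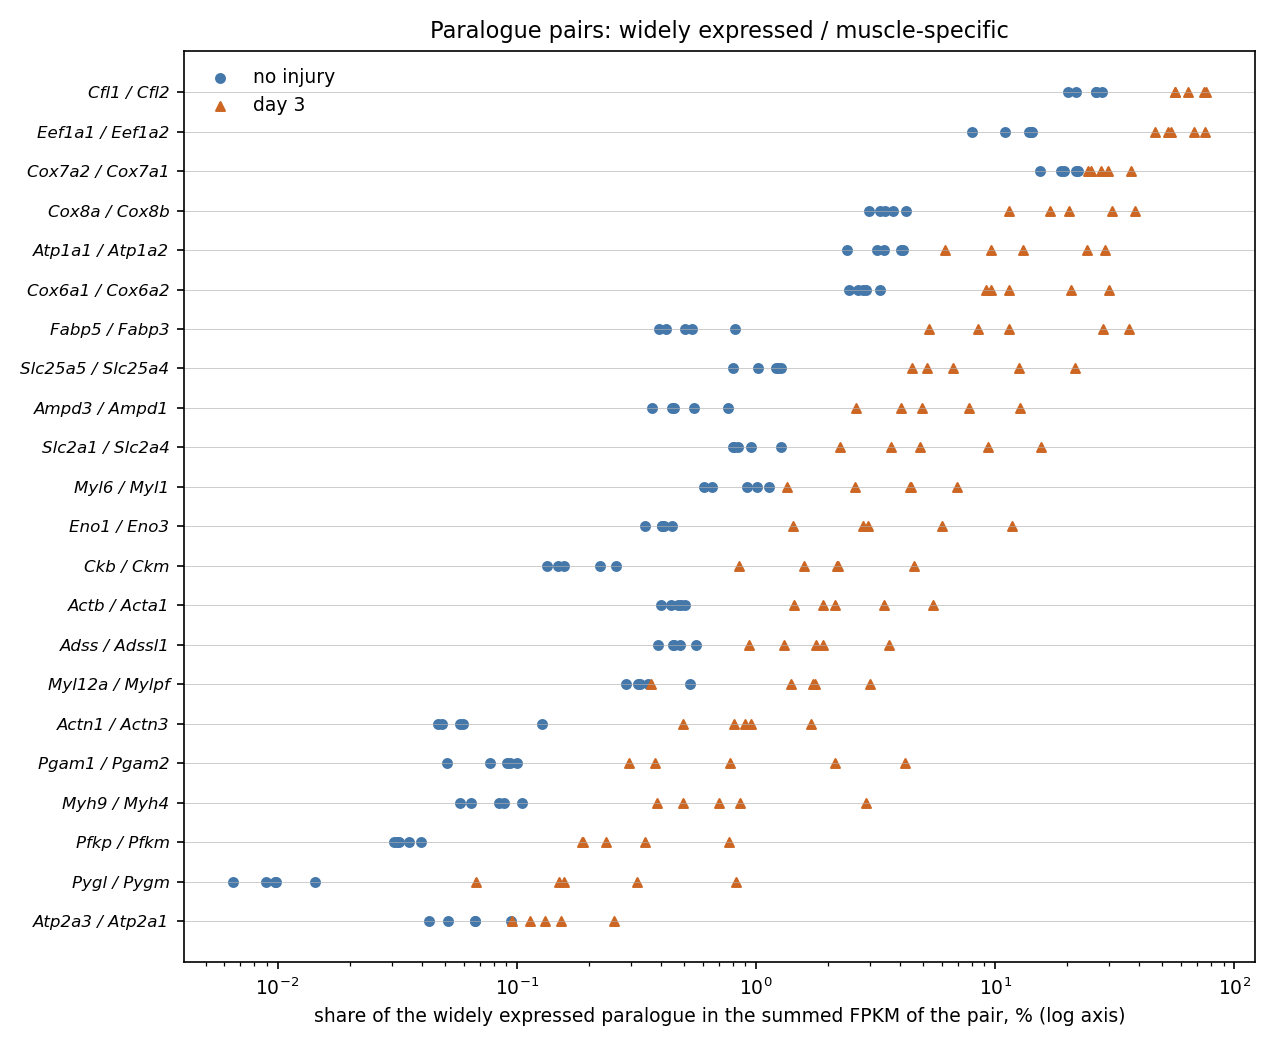
For each of 22 pairs, points give the share of the widely expressed paralogue in the summed FPKM of the pair, in percent on a log axis, in the 5 samples without injury and the 5 at day 3. The shares of day 3 lie above every uninjured sample in 21 of the 22 pairs.

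Ribosomes and the actin cytoskeleton rose with the non-muscle genes. Of 75 tested cytosolic ribosomal proteins 50 were higher and 1 lower, with a median log2 difference of 0.67. Rpl3 was 18.99, 19.4, 20.45, 16.4 and 15.4 FPKM without injury and 116, 136, 162, 188 and 63.7 FPKM at day 3 and its muscle paralogue Rpl3l, the member called lower, was 599.6, 436, 462, 389.6 and 552 FPKM without injury and 215, 203, 136, 65.0 and 218 FPKM at day 3. Of 19 genes of the Arp2/3 complex and its partners, which build branched actin in moving cells, 17 were higher, with Tmsb10, a small peptide that binds actin monomers, at 31.7, 28.4, 43.6, 20.6 and 25.8 FPKM without injury and 582, 505, 676, 743 and 269.9 FPKM at day 3, a log2 difference of 4.13 ± 0.47 (SE, adjusted p = 5.63e-07), and Coro1a, a coronin of leukocytes, at 3.34 ± 0.45 (SE, adjusted p = 4.69e-06). Of 20 immediate early genes 7 were higher and 0 lower, with Junb at 1.59 ± 0.45 (SE, adjusted p = 0.00567) and Fosl1 at 1.59 ± 0.43 (SE, adjusted p = 0.00436), whereas Fos was not called (3.03, 5.19, 7.28, 5.28 and 10.2 FPKM without injury and 7.82, 5.48, 6.20, 5.90 and 5.85 FPKM at day 3).

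Long noncoding RNAs changed in both directions. Of 426 lincRNA genes tested 44 were higher and 75 lower (10.3% and 17.6%), against 26.0% and 21.4% of 12165 protein-coding genes, though the former also have lower levels. Mir142hg, the host transcript of a microRNA of blood cells, was 0.279, 0, 0.950, 0.302 and 2.79 FPKM without injury and 16.9, 12.05, 15.9, 17.9 and 11.5 FPKM at day 3, a log2 difference of 3.24 ± 0.37 (SE, adjusted p = 5.88e-07). H19, an imprinted RNA of developing muscle, was 363, 146, 228, 169 and 202 FPKM without injury and 724, 652, 744, 708 and 2078 FPKM at day 3, highest in replicate 5, with a log2 difference of 2.05 ± 0.60 (SE, adjusted p = 0.00735). 2310065F04Rik was lower by -2.61 ± 0.51 (SE, adjusted p = 2.58e-04) on the log2 scale. The libraries did not keep the strand, so reads of a noncoding gene and of a gene on the other strand cannot be told apart.

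Day 3 was set against day 7 to ask what separated the earlier time from the next. With all samples only 7 genes were higher at day 3 (0.0478%) and 0 lower (0%) by limma, and voom weights on the recovered reads gave 1 and 0. The 7 included Sprr1a, which encodes a cornified envelope protein that injured neurons and muscle also express, at 0 FPKM in all 5 uninjured muscles, 1.87 to 10.5 FPKM at day 3 and 0 to 1.14 FPKM at day 7, and Cdkn3, a phosphatase of the cell cycle, at 1.07 to 3.59 and 0 to 2.01 FPKM. The others were Gm37565, Smim6, Gm19817, Msln and Oip5. The low counts rested on replicate 5 of both groups, for replicate 5 of day 7 stood apart too. It held 493 FPKM of Spp1 where the other 5 of day 7 held 7.55 to 28.6. For several genes each replicate 5 had values like those of the other group. Replicate 5 of day 7 held 261 FPKM of Hmox1, 48.3 of Gpnmb and 0.274 of Dlk1. Replicate 5 of day 3 held 15.5, 2.36 and 20.5 FPKM of them. Gm37565 did not follow this, at 0.0585 FPKM in replicate 5 of day 7 and 1.91 in that of day 3. The labels were kept, and the reason was not tested. Without replicate 5 of day 3 there were 648 genes higher and 82 lower, without replicate 5 of day 7 there were 1475 and 317, and without both, a choice made after seeing the data, 1748 (11.9%) and 517 (3.53%), among them all 7.

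Without these samples the phagocyte and cell cycle genes were higher at day 3 than at day 7. The samples left out were a day 3 sample low and a day 7 sample high in such genes, so that their removal favours this direction. The counts and adjusted p-values without them therefore only describe the samples kept. The Fc receptor list had 11 of 11 higher, with a median log2 difference of 2.22, and the mitosis list 34 of 36, with 1.20. With all samples 0 members of either list were called, at medians of 1.66 and 0.75. Spp1, one of the genes by which the samples left out stood apart, was higher by 4.52 on the log2 scale without them. All samples gave 2.79 (adjusted p = 0.0913). Lyz2 was at 858 to 1806 FPKM in replicates 1 to 4 of day 3 and 36.7 to 338 FPKM in the other 5 samples of day 7. Mymk was at 71.0 to 94.8 and 0.583 to 33.5 FPKM, and Chrng at 18.8 to 24.7 and 0.183 to 9.61 FPKM in the same samples. Collagen processing genes were higher for 5 of 16 and MHC class II genes for 2 of 6, and no gene of complex I or the citric acid cycle was called in either direction. Col1a1 did not differ detectably (log2 difference 0.029, adjusted p = 0.978). Dlk1, an imprinted growth regulator by which the samples left out also stood apart, was lower at day 3, at a log2 difference of -2.32. With all samples it was not called (-1.12, adjusted p = 0.394). Which of these differences depend on the stage of repair and which on the samples was not tested.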

How the data were processed

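Muscles were kept in RNAlater and extracted with Trizol, and polyadenylated RNA was sequenced from non-directional libraries on a NovaSeq instrument by Novogene. Per the submitters' processing notes, reads were aligned with HISAT2 2.0.5 and counted with featureCounts 1.5.0-p3. The authors deposited 1 table of FPKM, with 1 column per sample and a gene length, and no p-values or fold changes. The genome build of the alignment is not given in the sources used here. FPKM times gene length came out as whole multiples of 1 read (tolerance 0.05 reads) for 100% of the values of the 10 samples, which gave back reads per gene, the total per sample and the denominator of FPKM. No column was left without a sample.

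A mean per group was fitted on log2(FPKM + 1) with limma 3.58.1 (R 4.3.3) over all 27 samples, letting the variance follow the mean level, for genes that reached 0.5 FPKM in 5 or more samples. Tests were two-sided, with Benjamini-Hochberg adjustment over all genes tested and a threshold of 0.05. Simulated data with 200 changed genes among 14249, made for the comparison of day 3 with no injury, gave 40% recovery at 2-fold and 94% at 4-fold, with 7 false calls and 0 wrong directions. The simulation gave all genes the same dispersion, with no wider spread at day 3 and no sample like replicate 5. These rates may therefore not hold for the data. The named genes were the 12 largest increases and decreases without overlap, starred members and the 3 largest called changes each way of each list, paralogue pairs, markers, and the largest changes against day 7 and of noncoding genes. Members and lists were chosen with earlier results of these data known, so counts and medians describe the lists and no set test was run. Promoters were matched by symbol to the RefSeq table of GRCm38.p6 and kept where the start site lay within 2000 bases of the deposited gene start (median distance 11 bases). Plots used Python 3.11.15 with matplotlib 3.10.9. Alternatives were other pseudocounts, filters, scalings and variance models, voom weights on the recovered reads, a replicate block and leaving out each sample. Leaving out replicate 5 of both day 3 and day 7 was added after seeing the data.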

Additional observations from a re-analysis of the deposited data

Results flagged for a closer look

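Values that stood far from the rest of their group were looked for in 358 groups of 5 samples, as a gap to the nearest other sample above 0.71 of the range of the group. Chance alone marks about 1 in 20 such groups, and 30 were marked, 13 at day 3 and 17 without injury.

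At day 3, 11 of the 13 lay in replicate 5. It was the highest sample for Dlk1 (gap 0.982 of the range), H19 (0.936), Myh8 (0.917), Mylpf (0.807), Igfbp4 (0.805), Sln (0.794), Ccl8 (0.766) and Isg15 (0.731). It was the lowest for Smim6 (0.865), Mt1 (0.748) and Chrng (0.74). Replicate 4 was the lowest for Ckm (0.744) and Ryr1 (0.711).

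Without injury, replicate 3 was the highest for Myh8 (0.922), Gm19817 (0.903), Rrad (0.85), Fcer1g (0.847), Mymk (0.822), Runx1 (0.74), Mt1 (0.73) and Tnni1 (0.728), as well as for Arg1, where it was the 1 sample above 0 and its gap was the whole range (1). Replicate 4 was in the same way the 1 sample above 0 for Ccl8 (1), replicate 5 for Mymx (1) and replicate 2 for Oip5 (1). Replicate 1 was the highest for Hspb1 (0.897), Cfl1 (0.775) and Sod2 (0.766), and replicate 5 was the highest for Adam8 (0.788) and the lowest for Vtn (0.774). All of these uninjured values except those of Hspb1, Cfl1, Sod2 and Vtn were below 6 FPKM or, for Mt1, below 77 FPKM.

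The difference between day 3 and day 7 passed the test itself for 7 genes with all samples in the limma fit, each higher at day 3. The log2 differences were 2.14 for Sprr1a, 1.68 for Msln, 1.58 for Gm37565, 1.51 for Smim6, 1.17 for Cdkn3, 0.85 for Gm19817 and 0.77 for Oip5.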

How the results depend on the processing

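Against no injury, the counts of higher and lower genes stayed within 1.5 times their values (3417 and 2899) under every alternative run except 2 scalings, 6534 and 618 on each sample's own total of reads and 6868 and 322 on a common sum of FPKM. Leaving out 1 sample at a time gave 2918 to 3518 higher and 2371 to 2981 lower. With the replicate number as a block they were 3535 and 3025. Same-numbered samples did not deviate together (correlations of deviations of -0.17 to 0.055), so the block pairs samples only by a number.

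Against day 7, the count of higher genes (7) was 1 with a pseudocount of 0.1, with voom weights and with only the 2 groups in the fit, 2 with the replicate block, 4 with an FPKM minimum of 1 and on a common sum, 12 after quantile normalization and 16 without a filter. The count of lower genes (0) was 1 without a filter and 1 with the replicate block. Leaving out 1 sample gave 2 to 1475 higher and 0 to 317 lower, and leaving out replicate 5 of day 3 and of day 7, chosen after seeing the data, 1748 and 517.

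Over 174 named genes, 7 of 5211 single values turned their direction with a call on at least 1 side. Acta1 turned to 0.05 on a common sum and 0.49 after quantile normalization, Ccl11 to 0.09 on a common sum and Mylpf to 0.31 after quantile normalization, none of them called there. Fth1 turned to 0.79 on a common sum, 1.34 after quantile normalization and 0.63 on the own total, called higher in each. Of the other values 78 lost and 28 gained a call, and the replicate block changed the call of Ccl11 alone (adjusted p = 0.0501). The cause of these changes was not tested. Genes under about 1 FPKM rest on few reads, and changes of 2-fold were recovered less often than larger ones in simulated data.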
